A study of Mus musculus with 6 samples.

Results

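This report describes 9 genes that answer to dietary fat in other tissues, Pdk4, Cd36, Angptl4, Plin2, Acot1, Acot2, Ucp3, Fabp3 and Fabp4, among the 32285 genes counted in single-cell RNA-sequencing libraries of mouse testis. They were chosen by name as targets of the peroxisome proliferator-activated receptors (PPARs) or as handlers of lipid, by a rule that uses no measured value, though earlier results of these data were known. The libraries came from testes of wild-type C57BL/6 males (C57BL/6N in the study's methods), 8 weeks old, after 2 weeks on a purified diet rich in fat (labelled HFD) or its control poor in fat (labelled LFD), with 3 libraries per diet and no other treatment or allele in either group. The comparison of diets asks whether a short fat challenge changed gene expression in the testis. Each library was counted in unique molecular identifiers (UMIs), tags that each stand for 1 captured RNA molecule, within cell barcodes, the droplet tags that stand for cells. The study's methods give 3 mice per diet, so the libraries were taken as separate animals, which the labels themselves do not state.

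For all 6 libraries the diet in the name of the deposited file is the opposite of that in the GEO labels, and the labels were followed here. In the study's table of mapping results, the number of cells of every library matches the diet of its file name, not that of its label. HFD and LFD below therefore mean the libraries labelled so. If the file names are right, each diet difference would change its sign while its p-value would stay. Library totals ranged from 39196921 to 95845514 UMIs in 5753 to 11095 barcodes, 48939 barcodes in all, and 284 barcode sequences occurred in more than 1 library. HFD replicate 1 and LFD replicate 1 stood apart from the other 4 libraries, with summed haemoglobin-list levels of 1.37 and 1.16 UMIs per 1000000 UMIs of the sum (counts per this total, CPM) against 31.6 to 100 CPM, and with 224 and 243 Sertoli-like barcodes against 33 to 67.

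PPARs are nuclear receptors that bind fatty acids and, paired with RXR, raise the transcription of genes that take up, carry, store and burn fat. Cd36 takes up fatty acids at the plasma membrane, Fabp3 and Fabp4 carry them in the cytosol, Plin2 coats lipid droplets, Angptl4 is a secreted inhibitor of lipoprotein lipase, Acot1 and Acot2 split acyl-CoA in the cytosol and in mitochondria, Pdk4 turns pyruvate away from oxidation, and Ucp3 is a mitochondrial carrier of muscle and brown fat. In the testis, Sertoli cells take up residual bodies and germ cells and store lipid in droplets, and Leydig cells make steroid hormones from cholesterol.

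Plin2 and Fabp3 carry most of what follows, and Acot1 and Acot2 lie side by side on chromosome 12, so the DNA just upstream of these 4 genes is shown. All 9 members are protein-coding genes in the GENCODE M21 annotation of GRCm38. Plin2 lies at chr4:86648386-86670060 on the minus strand and Fabp3 at chr4:130308595-130315463 on the plus strand. Acot2 lies at chr12:83987861-83993873 and Acot1 at chr12:84009490-84018371, both on the plus strand and 15616 bases apart. The others are Cd36 at chr5:17781690-17888801 (minus), Pdk4 at chr6:5483351-5496309 (minus), Ucp3 at chr7:100472990-100486432 (plus), Fabp4 at chr3:10204088-10208576 (minus) and Angptl4 at chr17:33773750-33781830 (minus). Genes on the other strand overlap Fabp3 (Gm10570 and Zcchc17) and Ucp3 (Gm10603).

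The sequences come from RefSeq (GRCm38.p6), run 5′ to 3′ towards the gene and end before the first annotated base of the transcript. Capitals mark the core motif AGGTCA, read on either strand, of which a PPAR element holds a tandem pair. They span chr4:86670061-86670309 (minus) for Plin2, chr4:130308488-130308594 (plus) for Fabp3, chr12:84009252-84009489 (plus) for Acot1 and chr12:83987611-83987860 (plus) for Acot2.
Plin2: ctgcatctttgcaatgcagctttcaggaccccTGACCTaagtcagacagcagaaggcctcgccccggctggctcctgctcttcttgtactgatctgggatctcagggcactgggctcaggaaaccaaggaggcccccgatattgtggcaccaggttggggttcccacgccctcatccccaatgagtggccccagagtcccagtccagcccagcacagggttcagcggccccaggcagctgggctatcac
Fabp3: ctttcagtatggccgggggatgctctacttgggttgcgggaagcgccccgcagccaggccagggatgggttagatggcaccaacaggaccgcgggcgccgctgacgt
Acot1: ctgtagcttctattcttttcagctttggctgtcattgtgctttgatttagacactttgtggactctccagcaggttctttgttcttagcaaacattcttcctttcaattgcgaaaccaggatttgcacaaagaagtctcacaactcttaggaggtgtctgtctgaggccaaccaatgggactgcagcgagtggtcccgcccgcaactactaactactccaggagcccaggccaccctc
Acot2: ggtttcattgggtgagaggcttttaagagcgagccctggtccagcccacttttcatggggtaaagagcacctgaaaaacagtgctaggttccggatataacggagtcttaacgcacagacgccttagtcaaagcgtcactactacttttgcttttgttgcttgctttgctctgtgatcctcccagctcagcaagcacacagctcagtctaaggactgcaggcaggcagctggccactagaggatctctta
Windows of 250 bases upstream of the RefSeq start were found for 7 of the 9 members, Angptl4 and Fabp4 being the others. The tandem motif DR1, the core motif followed after any 1 base by itself, was in 0 of these 7 on either strand and in 0.0335% of all 32851 windows. The core motif AGGTCA was in 3 of the 7 (Plin2, Cd36 and Ucp3, the last with 2) and in 14.0% of all windows, which include those with the tandem motif. The Plin2 match begins at base -218 from the RefSeq start. A match is only a description of letters, and no match says only that these letters are not in this window.

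Cells were sorted into 11 types by marker UMIs, since no annotation of cell types was used. A germ-cell type needed at least 3000 UMIs in the barcode and a weighted mean of its markers' shares at least 2 times that of the whole library, and a somatic type needed a summed marker share at least 10 times that of the library, with at least 3 markers in each case (2 for early round spermatids). These limits were set after marker counts were seen. Named types held 12793 barcodes, 26.1% of all and 66.1% of UMIs. They were spermatogonia (976 barcodes), early spermatocytes (1767), pachytene spermatocytes (959), late spermatocytes (1385), early round spermatids (1505), later round spermatids (1997), elongating spermatids (3117), Sertoli-like (657), Leydig-like (12), peritubular and stromal (162) and macrophage-like barcodes (256). They are called by the names of their marker lists, so each germ type below is "-like" too. At least 1 marker of a type's own list, which chose its barcodes, was among the top 10 genes of each of the 11 types. There 0 markers of another list were found. Fewer markers had their highest pooled CPM in their own type in some germ types. This held for 7 of 9 markers in early, 3 of 6 in pachytene and 6 of 9 in late spermatocytes. In early and later round spermatids it held for 4 of 5 and 7 of 8, and in the other types for all. Barcodes without a name were shallower, with a median of 2366 UMIs against 13078.

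The 9 members held 23354 UMIs, 0.00544% of all, and 96.6% of these were from Plin2 (16426) and Fabp3 (6128). The other 7 members held 800 UMIs together, 208 for Cd36, 207 for Angptl4, 109 for Acot1, 93 for Acot2, 86 for Fabp4, 67 for Ucp3 and 30 for Pdk4. A 3′ library gives 1 tag per molecule, so these counts were not divided by transcript length. The lipid-droplet gene was thus the most abundant member in whole testis and the fuel-switch kinase Pdk4 the least. The members divided among cell types in different ways, as the map of levels and UMIs by cell type shows.

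**Figure D1:**
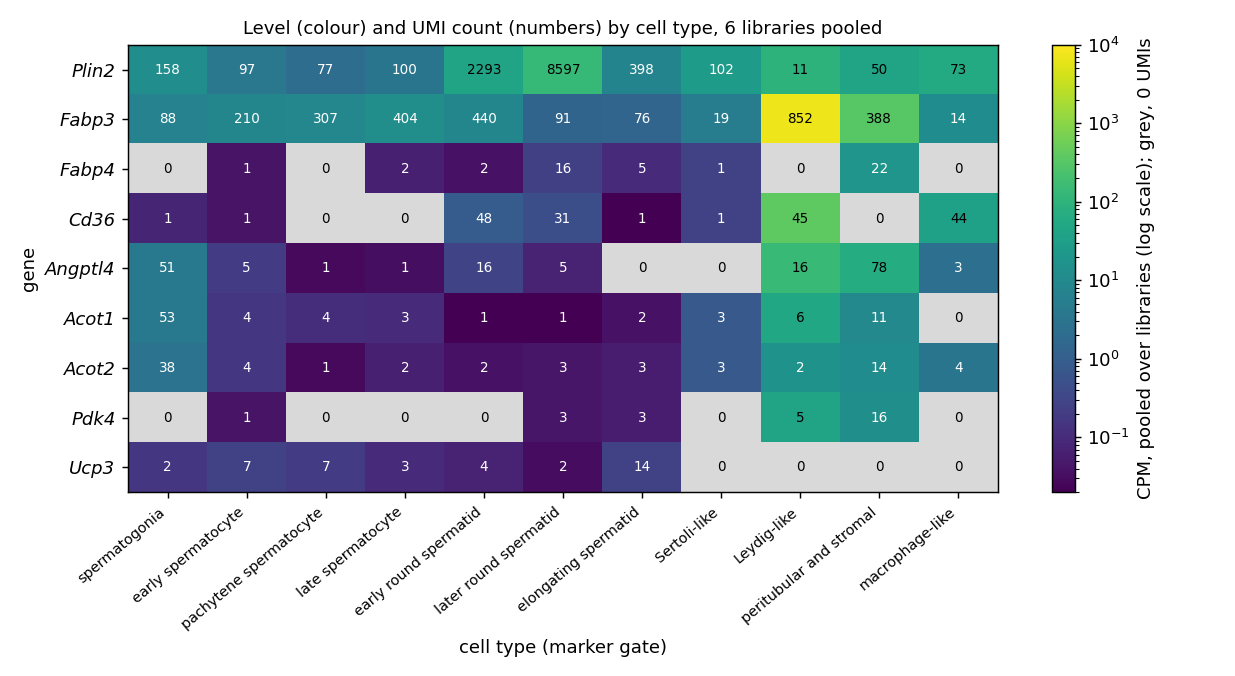
Level of each of the 9 genes (rows) in each of the 11 cell types (columns), as CPM pooled over the 6 libraries on a logarithmic colour scale, with the UMI count printed in each field and grey for 0 UMIs. Plin2 was brightest in later round spermatids (8597 UMIs), Fabp3 in Leydig-like (852 UMIs), and Acot1 had 53 of its 109 UMIs in spermatogonia.

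The droplet coat gene Plin2 was mainly a gene of round spermatids, the haploid cells that build the acrosome. Later round spermatids held 8597 of its 16426 UMIs (52.3%) and early round spermatids another 2293 (14.0%). In later round spermatids its level was 115, 133 and 141 CPM in HFD replicates 1 to 3 and 135, 111 and 175 CPM in LFD replicates 1 to 3. Every one of these 6 values lay above every value of the germ cells before and after. Early round spermatids had 42.8, 44.4 and 44.3 CPM in the HFD libraries and 41.8, 35.4 and 47.7 CPM in the LFD libraries.

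By CPM, Plin2 was low in meiotic cells and low again in elongating spermatids. The mean was 12.01 ± 2.35 CPM in spermatogonia, 4.28 ± 1.98 in early, 3.08 ± 2.21 in pachytene and 3.45 ± 1.29 in late spermatocytes, and 8.92 ± 3.52 in elongating spermatids (SD, n = 6 libraries). In edgeR's quasi-likelihood test of each cell type against the mean of the other 8 types with at least 20 barcodes in every library, Plin2 was higher in later round spermatids by 4.07 ± 0.0957 (SE) on the log2 scale, with a Benjamini-Hochberg adjusted p of 2.0e-40. In that contrast 45.2% of all 16811 genes tested were called higher, so being called is common there. How the size of the Plin2 difference ranks among all genes was not examined. In early round spermatids the log2 difference was 1.88 ± 0.111 (adjusted p = 1.9e-22 in edgeR), where 41.5% of genes were called higher. In elongating spermatids it was 0.49 ± 0.145 (adjusted p = 0.0018 in edgeR), where 6585 of 16811 genes were called higher. In spermatogonia it was -1.06 ± 0.177 (adjusted p = 2.7e-07 in edgeR), where 7358 genes were called lower. Elongating spermatids and spermatogonia thus stood in the opposite order in this test to that by CPM.

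Among somatic types, Plin2 stood at 62.0 ± 16.4 CPM in macrophage-like barcodes and 33.6 ± 19.0 CPM in Sertoli-like barcodes (SD, n = 6). The macrophage-like log2 difference was 2.09 ± 0.272 (adjusted p = 3.9e-09 in edgeR), where 15.7% of genes were called higher. The Sertoli-like log2 difference was 0.73 ± 0.220 (adjusted p = 0.0038 in edgeR), where 4985 of 16811 genes were called higher. Without HFD replicate 3, which had 68.9 CPM against 18.1 to 40.02 CPM in the others, this difference was 0.51 (adjusted p = 0.0732 in edgeR). Peritubular and stromal barcodes held 50 Plin2 UMIs (42.8 CPM, exact Poisson 95% interval 31.8 to 56.5) and Leydig-like barcodes 11 (94.5 CPM, 47.2 to 169). These intervals, like all others here, cover counting error only.

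Free RNA from broken spermatids is a usual background in testis droplets, so Plin2 was set beside the acrosome gene Acrv1, a marker of the later round spermatid list. Later round spermatids had 16.7 Plin2 UMIs per 100 Acrv1 UMIs, early round spermatids 10.6, and early, pachytene and late spermatocytes 12.7, 19.0 and 9.17. Spermatogonia had 26.0 and Sertoli-like barcodes 28.0, while macrophage-like barcodes had 64.6 and peritubular and stromal barcodes 68.5. Elongating spermatids had 5.53, below the 3 spermatocyte types. The ratio in spermatocytes was thus near that in round spermatids, and the ratio in macrophage-like and peritubular and stromal barcodes was several times larger. The part of free RNA in the Plin2 level of spermatogonia, spermatocytes and Sertoli-like barcodes was not tested.

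Per barcode, 79.9% of later round spermatids had a Plin2 UMI at a median depth of 34182 UMIs, and 57.5% of early round spermatids at 32721. Late spermatocytes, with a median of 5507 UMIs, gave 6.21%. After thinning each barcode to 1500 UMIs the shares were 14.3% (exact binomial 95% interval 12.8 to 15.9) in later round spermatids, 4.65% (3.64 to 5.84) in early round spermatids and 1.59% (0.998 to 2.40) in late spermatocytes, with 0 barcodes left out as too shallow. The order of the 3 stages was the same at equal depth.

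Over the 9 types with enough barcodes, the order of mean CPM of Plin2 began with later round spermatids, macrophage-like, early round spermatids and Sertoli-like barcodes. Spermatogonia, elongating spermatids and early, late and pachytene spermatocytes followed in that order. Later round spermatids were above the next type in 6 of 6 libraries, by 73.1 ± 26.6 CPM (SD), and Sertoli-like barcodes above spermatogonia in 6 of 6. Elongating spermatids were above early spermatocytes in 6 of 6 as well, by 4.64 ± 2.43 CPM (SD). Each of these pairs gave p = 0.0312 in a two-sided exact sign-flip permutation test over libraries, the smallest that 6 libraries allow. After Benjamini-Hochberg adjustment over the 16 neighbour tests made for Plin2 and Fabp3 each was at 0.125. Such a design could not pass 0.05 after adjustment in single pairs. Except for later round spermatids over macrophage-like and Sertoli-like over spermatogonia, the ranges of neighbours overlapped. Macrophage-like barcodes were above early round spermatids in 5 of 6 libraries, by 19.2 ± 16.5 CPM (SD; p = 0.0625, exact), and early round spermatids above Sertoli-like barcodes in 5 of 6 (p = 0.25, exact). Neighbours among the 3 spermatocyte types kept their order in 4 of 6 libraries (p = 0.406 and 0.656, exact). With 6 libraries these p-values do not show that levels were alike.

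**Figure D2:**
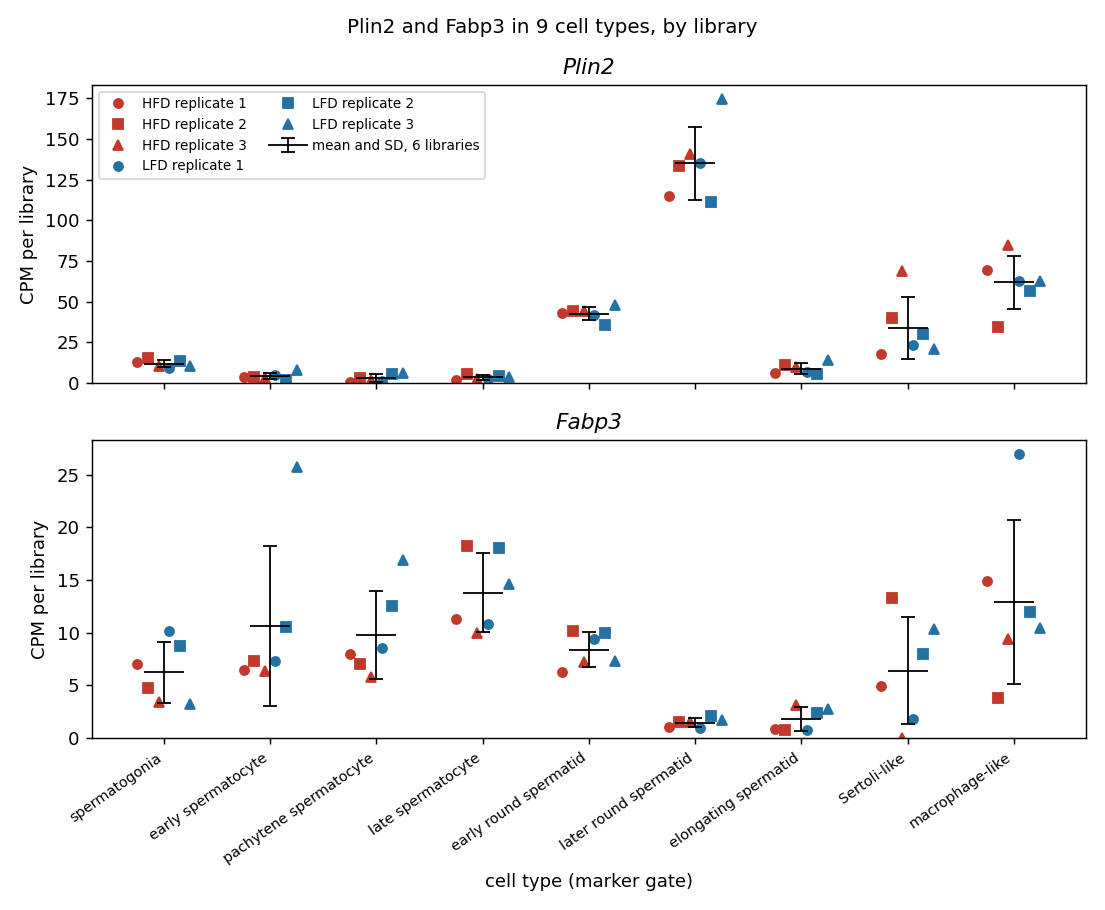
CPM of Plin2 (top) and Fabp3 (bottom) in each of 9 cell types for each library, with HFD libraries in red, LFD libraries in blue, the symbol giving the replicate number, and black bars for the mean and SD of 6 libraries. All 6 Plin2 values of later round spermatids lie at 111 CPM or more, and the Fabp3 mean is 8.40 CPM in early and 1.48 CPM in later round spermatids.

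Fabp3, the heart-type fatty acid binding protein, was by level a Leydig-like and peritubular gene. By count, 52.9% of its UMIs lay in barcodes without a name, and the rest were spread over all 11 types. The 12 Leydig-like barcodes, 0.0245% of all barcodes, held 852 of its 6128 UMIs (13.9%), 7319 CPM with an interval of 6836 to 7828. In 11 of the 12 a Fabp3 UMI was found, with a median of 46.0 and a maximum of 250 UMIs in a barcode. By library the level was 10591, 4069 and 4175 CPM in HFD replicates 1 to 3 (6, 2 and 2 barcodes), 0 in LFD replicate 1 (1 barcode of 1501 UMIs) and 7625 in LFD replicate 3 (1 barcode). LFD replicate 2 had 0 such barcodes, so the diets cannot be compared there. The 7 Leydig-like barcodes with at least 54 UMIs of the 7 Leydig markers held 32 to 250 Fabp3 UMIs, and the other 5 held 0 to 6. These 7 barcodes were also deeper, with 3649 to 23631 UMIs of all genes against 1278 to 2319. Such raw counts do not separate level from depth, so nothing is read from the split. Barcodes above 150000 UMIs were kept out of every type, and with them the Leydig-like level would be 963 CPM.

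**Figure D3:**
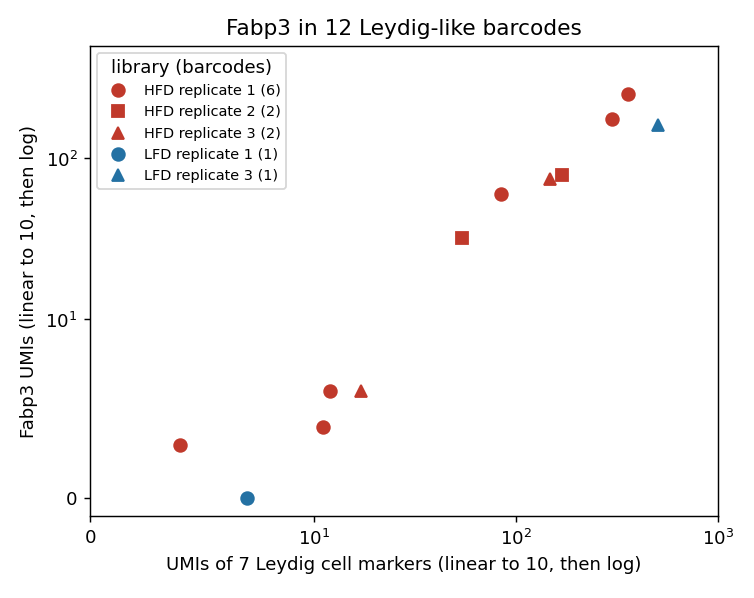
Fabp3 UMIs (vertical) against the summed UMIs of the 7 Leydig cell markers (horizontal) in each of the 12 Leydig-like barcodes, both axes linear to 10 and logarithmic above, with colour for the diet label and symbol for the replicate. The 7 barcodes with at least 10 Fabp3 UMIs are also those with at least 54 marker UMIs. They are the deepest as well, at 3649 or more UMIs of all genes.

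Peritubular and stromal barcodes, the contractile and matrix cells around the tubules, held 388 Fabp3 UMIs, 332 CPM (interval 300 to 367). The level was 320, 277 and 119 CPM in the HFD libraries and 270, 372 and 530 CPM in the LFD libraries, with only 3 such barcodes in HFD replicate 3. After thinning to 1500 UMIs, 37.9% of peritubular and stromal barcodes (interval 30.4 to 45.9) had a Fabp3 UMI, against 0.451% of later round spermatids. Barcodes without a name held 3239 Fabp3 UMIs (52.9%), of which 169 were in 4 barcodes of 20 or more UMIs each.

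Within the germ line Fabp3 peaked elsewhere than Plin2. By mean level it was highest in late spermatocytes. Values there were 11.3, 18.3 and 9.93 CPM in the HFD libraries and 10.8, 18.0 and 14.6 CPM in the LFD libraries. Early and pachytene spermatocytes had 10.6 ± 7.56 and 9.80 ± 4.18 CPM (SD, n = 6). In LFD replicate 3 both, at 25.8 and 16.9 CPM, were above late spermatocytes. Fabp3 was at 8.40 ± 1.67 CPM in early round spermatids and 1.48 ± 0.435 CPM in later round spermatids (SD, n = 6), where Plin2 was at its peak. The late spermatocyte difference was 1.34 ± 0.161 (SE, log2; adjusted p = 8.5e-11 in edgeR), where 35.8% of genes were called higher. The later round spermatid difference was -1.78 ± 0.222 (adjusted p = 1.6e-10 in edgeR), where 5911 of 16811 genes were called lower. Smaller differences in pachytene spermatocytes (0.63) and early round spermatids (0.73) passed with TMM scaling, but with RLE size factors they were 0.24 and 0.33 and did not pass.

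The germ-line level of Fabp3 was set beside the Leydig markers in the same barcodes. Leydig-like barcodes had 51.1 Fabp3 UMIs per 100 Leydig marker UMIs and Sertoli-like barcodes 50. Late spermatocytes had 449, early round spermatids 595 and pachytene spermatocytes 327, while spermatogonia, early spermatocytes and later round and elongating spermatids had 125 to 166. In the 6 libraries the late spermatocyte ratio ran from 250 to 730. Peritubular and stromal barcodes, also rich in Fabp3, had 7760, but on only 5 Leydig marker UMIs, with 0 in HFD replicate 3 and LFD replicate 3. The part of free RNA from Leydig-like or peritubular and stromal cells in the germ-line level was not tested. The 8 neighbour pairs in the order of Fabp3 CPM included 1 that held in 6 of 6 libraries. This was spermatogonia above elongating spermatids, by 4.44 ± 3.61 CPM (SD). In edgeR with TMM scaling the 2 types lay close together against the mean of the others. Their log2 differences there were -0.58 ± 0.231 and -0.66 ± 0.240 (SE).

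Fabp4, the adipocyte fatty acid binding protein, was found in few barcodes. Of its 86 UMIs, 22 were in peritubular and stromal barcodes, with 8 in 1 barcode of HFD replicate 3 and 9 in 1 barcode of LFD replicate 2. Another 16 lay in later round spermatids, at 0.242 CPM (interval 0.138 to 0.393), and 0 in spermatogonia, where 0 UMIs allow a level of up to 0.234 CPM. None of the 48939 barcodes passed the adipocyte marker limit. The 2 rich barcodes had 3 and 4 UMIs of endothelial markers and 0 of adipocyte markers, beside 354 and 238 of peritubular and stromal markers.

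The fatty acid transporter Cd36 was seen in macrophage-like and Leydig-like barcodes and, much lower, in round spermatids. Macrophage-like barcodes held 44 of 208 UMIs, with 14.9, 46.3 and 61.2 CPM in the HFD libraries and 26.9, 20.9 and 63.0 CPM in the LFD libraries. The gene passed the filter on low counts through the types where it is high, so the tests of macrophage-like barcodes and of round spermatids had to find a difference and are not used. After thinning, 6.91% of macrophage-like barcodes (interval 4.08 to 10.8) had a Cd36 UMI. Of 45 UMIs in Leydig-like barcodes, 21 were in 1 barcode of HFD replicate 2 and 20 in 1 of LFD replicate 3. These 2 had 168 and 505 Leydig, 48 and 23 peritubular and stromal, and 0 endothelial and macrophage marker UMIs. Of all Leydig-like barcodes 41.7% passed the limits of a second type. The pooled Leydig-like level was 387 CPM, but 64.6 CPM with barcodes of a single gate and 43.3 CPM with no UMI limit.

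Early round spermatids held 48 Cd36 UMIs, 0.907 ± 0.383 CPM, and later round spermatids 31. Pachytene and late spermatocytes held 0, which allows up to 0.0835 and 0.0966 CPM. Round spermatids were thus the germ cells with Cd36 in these libraries, at a level where 2.99% of early round spermatids (interval 2.19 to 3.98) had a UMI at a median depth of 32721 UMIs. After thinning to 1500 UMIs 0 of 1505 did, so the difference between stages could not be seen at equal depth.

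Angptl4, the secreted lipase inhibitor, had its highest levels in Leydig-like and in peritubular and stromal barcodes. Leydig-like barcodes were at 137 CPM on 16 UMIs (interval 78.6 to 223) and peritubular and stromal barcodes at 66.8 CPM on 78 of its 207 UMIs (interval 52.8 to 83.4). By library the latter were at 72.1, 86.4 and 59.3 CPM in the HFD libraries and 67.5, 54.5 and 54.4 CPM in the LFD libraries, on 34, 10, 1, 12, 17 and 4 UMIs. After thinning, 13.7% of these barcodes (interval 8.77 to 19.95) had an Angptl4 UMI, against 0 of 3117 elongating spermatids (exact interval up to 0.118%). Spermatogonia held 51 UMIs, with 4.47, 4.78 and 4.10 CPM in the HFD libraries and 3.71, 2.03 and 6.48 CPM in the LFD libraries. In spermatogonia 39.3% of all genes tested were called higher. Angptl4 and Acot2 were among them, but both passed the filter on low counts through types where they are high, so nothing is read from these calls.

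The acyl-CoA thioesterases Acot1 and Acot2 both had more UMIs in spermatogonia than in any other named type. Acot1 had 53 of 109 UMIs there, at 7.02, 3.72 and 2.05 CPM in the HFD libraries and 2.78, 3.72 and 3.24 CPM in the LFD libraries. Acot2 had 38 of 93, at 3.51, 3.18 and 0.684 CPM in the HFD libraries and 3.25, 3.04 and 3.24 CPM in the LFD libraries. Peritubular and stromal barcodes held 11 and 14 UMIs, and barcodes without a name 19 and 16. By pooled level spermatogonia were not first: Acot1 was at 4.13 CPM there, 9.42 CPM in peritubular and stromal and 51.5 CPM in Leydig-like barcodes (6 UMIs). Acot2 was at 2.96 CPM there, 11.99 CPM in peritubular and stromal, 17.2 CPM in Leydig-like (2 UMIs) and 3.29 CPM in macrophage-like barcodes (4 UMIs). In the 3 spermatocyte types the pooled level of either gene was at most 0.156 CPM. Acot1 was removed by the filter on low counts. Over the aligned part of their longest transcripts the 2 genes are 82.0% identical (1265 of 1543 bases). Over the last 500 bases, nearer to where 3′ tags lie, 153 bases aligned and 112 of these (73.2%) were identical. How many reads the 2 genes share was not tested. Among spermatogonia 65.7% also passed the limits of a second type. Without those, 335 spermatogonia remained and the levels moved to 6.56 CPM for Acot1 and 1.4998 CPM for Acot2.

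Pdk4 and Ucp3 were close to the limit of detection. Pdk4 had 30 UMIs in 27 barcodes, 16 in peritubular and stromal barcodes (13.7 CPM, interval 7.83 to 22.3), 5 in Leydig-like barcodes and 0 in macrophage-like, Sertoli-like and spermatogonia barcodes, where 0 UMIs allow up to 2.47, 0.800 and 0.234 CPM. Ucp3 had 67 UMIs and was thinly spread, with 14 in elongating spermatids (0.266 CPM, interval 0.146 to 0.447), 7 each in early and pachytene spermatocytes and 0 in the 4 somatic types. No Ucp3 barcode held more than 2 UMIs.

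The gene patterns most like those of the members were sought over 54 sums, of 6 libraries in each of 9 types, on the scale log2(CPM + 1), among the 17921 genes with at least 100 UMIs in these barcodes. The 54 points share libraries and the large steps between cell types, so Pearson's r describes them only. Plin2 was most like Clec4a2 (r = 0.932), Nlrc4 (0.918) and Stambpl1 (0.917). Fabp3 was most like Alas1 (0.792), Wrn (0.791) and Rnf40 (0.785). Cd36 was most like Lilr4b (0.970), Adgre1 (0.969, itself a marker of the macrophage list) and Pld4 (0.968).

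Between diets, no difference of a member passed the test in whole testis. Of the 8 tested 0 passed, and over all 20727 genes 0.0% were called by edgeR, with 471 genes at an unadjusted p under 0.05, while DESeq2 called 0, with 444. Pdk4 was too low for the filter. Fewer cells of a type and less RNA per cell cannot be told apart in such sums. The plot of whole-testis levels by diet shows that the HFD and LFD libraries overlapped for all 9 genes.

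**Figure D4:**
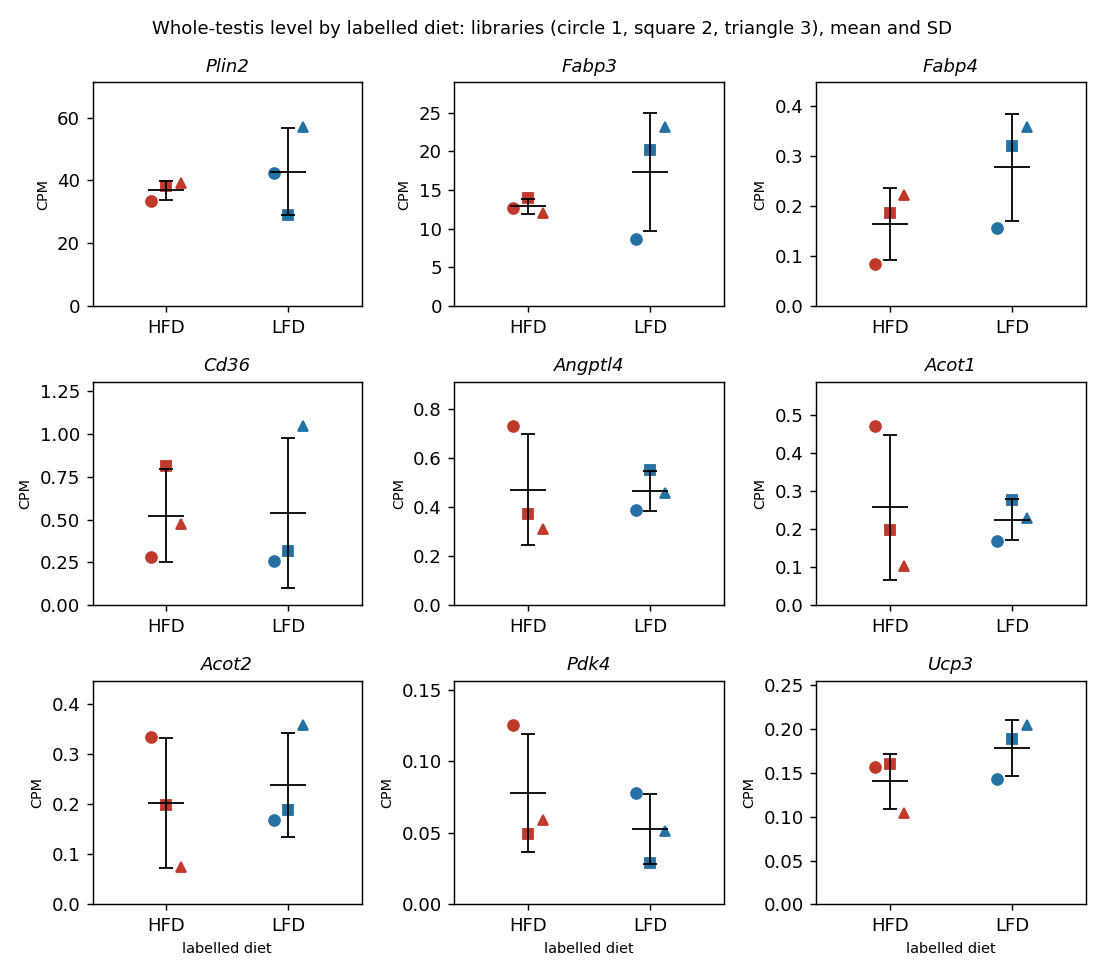
Whole-testis level in CPM of each of the 9 genes (1 panel each, each axis from 0) in the 3 HFD (red) and 3 LFD (blue) libraries, with circles, squares and triangles for replicates 1, 2 and 3 and black bars for the mean and SD of each diet. The ranges of the diets overlap in each panel, as for Plin2 with 33.3 to 39.1 CPM against 29.1 to 57.0 CPM.

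Plin2 had 33.3, 38.1 and 39.1 CPM in the HFD libraries and 42.5, 29.1 and 57.0 CPM in the LFD libraries. Its log2 difference, HFD minus LFD, was -0.16 ± 0.219 (SE, adjusted p = 0.986 in edgeR). The pair of replicate 1 libraries differed by -9.12 CPM and the means of the other 4 libraries by -4.44 CPM. Fabp3 had 12.7, 14.0 and 12.01 CPM in the HFD libraries and 8.62, 20.2 and 23.1 CPM in the LFD libraries. Its log2 difference was -0.35 ± 0.286 (adjusted p = 0.986 in edgeR), with +4.10 CPM in the replicate 1 pair and -8.70 CPM in the other 4. The summed Leydig markers were at 9.72, 6.07 and 6.18 CPM in the HFD libraries and at 1.97, 7.38 and 21.1 CPM in the LFD libraries, so they were lowest and highest in the same libraries as Fabp3, and all 7 markers had UMIs. Their part in the Fabp3 values was not tested.

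The other members were too scarce for a narrow estimate. The log2 differences were -0.68 ± 0.482 for Fabp4, 0.08 ± 0.547 for Cd36, 0.10 ± 0.389 for Angptl4, 0.31 ± 0.541 for Acot1, -0.07 ± 0.551 for Acot2 and -0.25 ± 0.416 for Ucp3 (SE, n = 3 per diet). Their adjusted p-values lay between 0.986 and 0.996 in edgeR. Among the 8 tested, 3 were higher and 5 lower in the HFD libraries, with a median log2 difference of -0.11 beside 0.02 over all genes. Standard errors near 0.5 leave changes of that size on the log2 scale undetectable at this depth. Leaving out 1 library turned the sign for Plin2, Cd36, Acot2, Acot1 and Angptl4. For Acot1 the difference was -0.57 and for Angptl4 -0.48 without HFD replicate 1, in which Acot1 was at 0.470 CPM and Angptl4 at 0.730 CPM.

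Within cell types only Plin2 and Fabp3 were abundant enough to test, in 9 and 7 types. Of these 16 pairs 0 passed, 2 had an unadjusted p under 0.05, and over all genes of the 9 fits 0.0% were called, with 25 to 686 genes per type at an unadjusted p under 0.05 in edgeR. DESeq2 called 30 genes in pachytene spermatocytes and 0 in the other 8 types. In the types where it is most abundant, Plin2 had log2 differences of -0.15 ± 0.158 in later and 0.06 ± 0.127 in early round spermatids (SE, adjusted p = 0.921 and 0.912 in edgeR). These were the smallest standard errors of the 16.

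Fabp3 had the more uneven values. Its log2 difference was below 0 in all 7 germ-cell types tested, from -0.84 ± 0.384 in early spermatocytes to -0.16 ± 0.281 in late spermatocytes, and the 7 types share the same 6 libraries. In pachytene spermatocytes the level was 7.96, 7.003 and 5.76 CPM in the HFD libraries and 8.57, 12.5 and 16.9 CPM in the LFD libraries, so that the diets did not overlap. The log2 difference there was -0.78 ± 0.285 with an unadjusted p of 0.0180 and an adjusted p of 0.769 in edgeR. It was -0.611 CPM in the replicate 1 pair and -8.36 CPM in the other 4. Leydig marker UMIs in the same barcodes were at 1.48, 3.43 and 2.40 CPM in the HFD libraries and 2.17, 3.96 and 6.98 CPM in the LFD libraries, and their part in the difference was not tested. Of 20 pairs of a member and a cell type with at least 3 UMIs in each library, this was the only 1 whose diets did not overlap. With 3 libraries per diet such a split can arise by chance. Its share over all genes was not counted, so nothing is read from it.

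**Figure D5:**
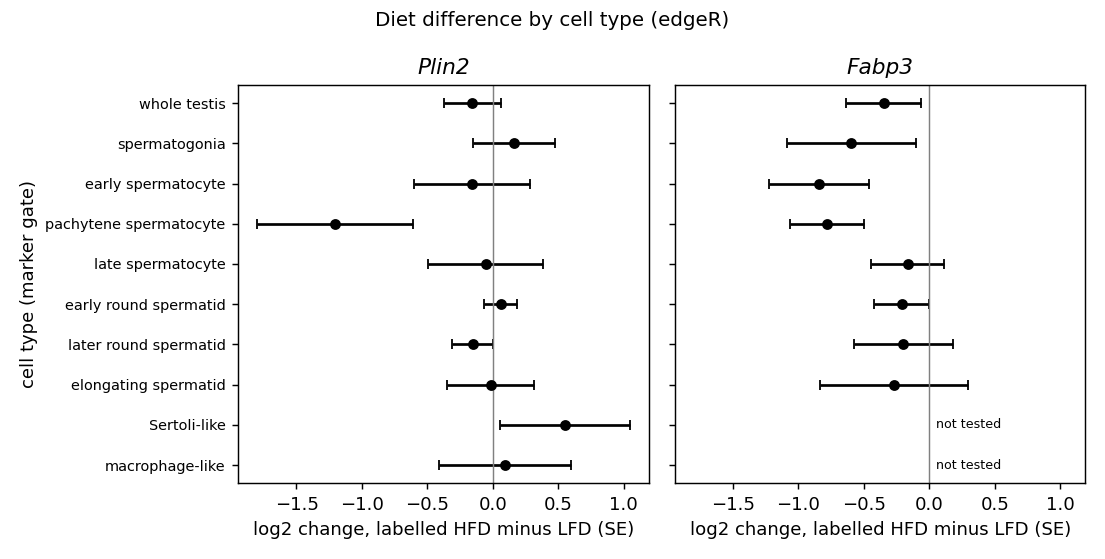
Log2 change, HFD minus LFD, of Plin2 (left) and Fabp3 (right) in whole testis and in the 9 (Plin2) or 7 (Fabp3) cell types tested, with points for the edgeR estimate and bars for 1 SE. Values run from -1.21 for Plin2 in pachytene spermatocytes to 0.55 for Plin2 in Sertoli-like barcodes, and 0 of the 18 differences passed at an adjusted p under 0.05.

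Plin2 in pachytene spermatocytes had the largest log2 difference, -1.21 ± 0.595 (adjusted p = 0.794 in edgeR), on only 77 UMIs, and at 0.821, 2.83 and 1.68 CPM in the HFD libraries and 1.54, 5.61 and 5.98 CPM in the LFD libraries the diets overlapped. In Sertoli-like barcodes the difference was 0.55 ± 0.500 and turned to -0.05 without HFD replicate 3.

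The other genes of PPAR signalling and lipid handling were read from a list of 72 genes in 9 roles, all 72 with at least 1 UMI. In whole testis 60 were tested and 0 passed in either direction, with 1 at an unadjusted p under 0.05, and the median log2 difference was -0.05. Within the 9 cell types 0 of 311 pairs of a gene and a type passed. Each role is described by its gene with the most UMIs, in CPM over whole testis (SD, n = 6). Among the receptors this was Rxrb, an RXR, at 12.7 ± 1.49 CPM, and among the coregulators Ncor1, a corepressor, at 83.8 ± 10.8 CPM. Both were highest in spermatogonia, at 40.5 and 186 CPM.

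In several roles the gene with the most UMIs in whole testis was a paralog of a member, and it was more abundant than that member. That choice favours abundant genes, and some other paralogs were scarcer than members. Acot3 had 11 UMIs, Ucp1 29 and Fabp2 5, and Plin3 was at 10.4 CPM against 39.8 CPM for Plin2. Fabp9, the testis fatty acid binding protein, was at 4467 ± 310.2 CPM in whole testis, against 15.1 ± 5.47 CPM for Fabp3 and 0.220 ± 0.102 CPM for Fabp4, all as 3′ tag levels. The thioesterase Acot7 was at 391 ± 25.7 CPM, against 0.241 and 0.220 CPM for Acot1 and Acot2. Pdk3 was at 55.6 ± 8.06 CPM, against 0.0653 CPM for Pdk4, and peaked in later round spermatids at 145 CPM. Ucp2 was at 3.23 ± 1.45 CPM, against 0.159 CPM for Ucp3, and was highest in macrophage-like barcodes at 179 CPM. The lipase gene Pnpla2, which acts at droplets, was at 182 ± 17.6 CPM and peaked in pachytene spermatocytes, at 267 CPM. Plin2 was low in each spermatocyte type, and its order among them differed between libraries. Hadha, of mitochondrial fatty acid oxidation, was at 136 ± 15.9 CPM and Lmf1, a lipase maturation factor, at 66.0 ± 8.46 CPM, both highest in late spermatocytes.

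Diet differences of these leading genes ran from -0.29 ± 0.433 for Ucp2 to 0.17 ± 0.127 for Fabp9 (SE, log2; adjusted p from 0.986 to 0.998 in edgeR). The PPAR genes themselves, named outside the rule and after their values were seen, were scarce. Ppara had 1317 UMIs in whole testis, with 5.93 ± 1.26 CPM in early and 4.95 ± 1.51 CPM in later round spermatids against 0.233 to 1.05 CPM in the 3 spermatocyte types. Pparg had 593 UMIs and Ppard 213, with Ppard at 7.51 ± 2.13 CPM in spermatogonia (SD, n = 6). Pparg was highest among germ cells in spermatogonia (4.78 ± 3.50 CPM) and early spermatocytes (3.97 ± 1.05 CPM; SD, n = 6), and Plin2 was low in the latter. Round spermatids had the most Ppara and the most Plin2 of the germ cells. Ppara was higher in the early ones and Plin2 in the later ones. Spermatogonia had the most Ppard and Pparg and the most Angptl4, Acot1 and Acot2 of the germ cells. Any link between the levels of receptors and members was not tested.

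Under other scalings the median of all genes in a cell-type contrast moved by over 0.1 on the log2 scale. In later round spermatids it was 0.08 with TMM, -0.22 with RLE size factors and -0.83 with DESeq2, beside Plin2 differences of 4.07, 3.76 and 3.74. In early round spermatids it went from -0.04 to -0.43 and -1.17, and in Sertoli-like barcodes from -0.04 to 0.29 and 1.12. The share of higher calls among all calls was 47.3% in spermatogonia, 54.2% in pachytene and 48.4% in late spermatocytes, 54.8% in early and 56.2% in later round spermatids, 52.2% in Sertoli-like and 62.3% in macrophage-like barcodes. With RLE size factors it was, in the same order, 60.55%, 42.1%, 39.2%, 42.2%, 49.0%, 69.5% and 74.8%, and with DESeq2 60.2%, 34.6%, 34.7%, 36.8%, 46.1%, 72.3% and 84.3%.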

How the data were processed

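Testes were dissociated and run on the 10x Genomics 3′ platform. The labels name version 2 of the library kit and the study's methods version 3.1, so the chemistry is uncertain. Per the labels, the authors used Cell Ranger 6.0.1 and the mm10 build, and they deposited raw UMI counts per gene and barcode, not normalized. The study's limits of 200 and 40000 genes removed 0 of 48939 barcodes, and no doublets were removed.

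Members, markers and the pathway list were chosen with earlier results of these data known, and the gate limits after marker UMIs were seen. Barcodes over 150000 UMIs (47, of which 14 in LFD replicate 2) entered no cell type. The endothelial gate (12 barcodes, with the spermatid gene Acrv1 at 550 CPM), the T cell gate (7, with the spermatid gene Tnp1 at 40196 CPM) and the erythroid gate (11) stayed unused, and 0 barcodes passed the adipocyte and epididymal gates. Macrophage-like barcodes were also led by the chemokine genes Ccl4, Ccl3 and Cxcl2.

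UMIs were summed per library, and per library and cell type with at least 20 barcodes in every library. The quasi-likelihood test of edgeR 4.0.16 in R 4.3.3, two-sided, with TMM scaling and filterByExpr, was fitted to these sums, once for diet (HFD minus LFD) and once for each cell type against the mean of the others with the library as a block. P-values were adjusted by Benjamini-Hochberg over all genes of a contrast, with calls at 0.05, and SEs were taken from the F value. DESeq2 1.42.0 was an alternative. The tests were first tested on simulated counts. CPM are UMIs per 1000000 UMIs of the sum. Poisson and binomial intervals are exact at 95%, and a count of 0 was read as at most 3 counts of the total. Shares were thinned to 1500 UMIs per barcode. Python 3.11.15, numpy 2.4.6, scipy 1.17.1 and pandas 2.3.3 were used.

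The text names all members, of the pathway list the genes called between diets and otherwise the gene with the most UMIs in each role, and the 3 genes most like each member with at least 100 UMIs. The authors' cell types and test results were not used here. Alternatives were other tools, scalings, filters, blocks and gates, a batch term and leaving out each library. Those without Leydig-like barcodes, without barcodes over the UMI limit, without that limit on gates, and without each library for levels were chosen after seeing the data.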

Additional observations from a re-analysis of the deposited data

Results flagged for a closer look

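Among 29 groups of 6 libraries examined (a member in whole testis, or in a cell type with at least 3 UMIs in each library), 2 had a library far from the other 5, with a gap to the nearest value above 0.625 of the whole range. Chance gives such a gap in about 1 in 20 groups. Fabp3 in early spermatocytes was at 25.8 CPM in LFD replicate 3 (26 UMIs) against 6.34 to 10.5 CPM in the other libraries, and summed Leydig markers in the same barcodes were at 11.9 CPM there against 3.34 to 6.21 CPM. Acot1 in spermatogonia was at 7.02 CPM in HFD replicate 1 (22 UMIs) against 2.05 to 3.72 CPM. What set these libraries apart was not tested.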

How the results depend on the processing

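No member passed the diet test under any alternative run, while counts over all genes, 0 in each of the 10 diet fits, moved in places. By the labels the HFD and LFD libraries share only a replicate number, while the replicate 1 libraries were alike in the data (the lowest of the chi-square values per degree of freedom between libraries, 19.97, against 46.5 or more). Same-number deviations correlated at 0.487, 0.0311 and 0.262, and HFD replicate 2 correlated best with LFD replicate 3 (0.300). With the replicate block edgeR called 24 genes in whole testis, 174 in pachytene spermatocytes, 6 in early and 7 in later round spermatids, 2 in elongating spermatids and 2 in Sertoli-like barcodes, and Plin2 turned to 0.011 (log2) in elongating spermatids and -0.077 in macrophage-like barcodes. With no filter on low counts 71 genes were called in early and 161 in pachytene spermatocytes, 59 in early and 44 in later round spermatids, 10 in elongating spermatids, 4 in Sertoli-like and 1 in macrophage-like barcodes. DESeq2 called 30 and a batch term for the replicate 1 libraries 119 in pachytene spermatocytes. A stricter gate gave 55 in Sertoli-like barcodes and turned Plin2 to 0.19 in early spermatocytes and -0.032 in macrophage-like barcodes. It was not run for pachytene spermatocytes and later round spermatids, which then had under 20 barcodes in a library.

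Leaving out 1 library gave 0 to 2 calls in whole testis, 0 to 185 in spermatogonia (185 without LFD replicate 2), 0 to 239 in pachytene spermatocytes (239 without HFD replicate 1, 79 without LFD replicate 1), and 0 to 533 in early and 0 to 9 in later round spermatids (533 and 9 without HFD replicate 1). Log2 diet differences then ran in whole testis from -0.38 to 0.015 for Plin2, -0.37 to 0.83 for Cd36, -0.72 to 0.30 for Acot2, -0.57 to 0.67 for Acot1 and -0.48 to 0.32 for Angptl4. For Plin2 they ran from -0.61 to 0.11 in early and -0.51 to 0.20 in late spermatocytes, -0.065 to 0.17 in early and -0.32 to 0.043 in later round spermatids, -0.28 to 0.34 in elongating spermatids, -0.052 to 1.05 in Sertoli-like and -0.14 to 0.45 in macrophage-like barcodes. For Fabp3 they ran from -0.43 to 0.023 in late spermatocytes, -0.55 to 0.14 in later round and -0.99 to 0.016 in elongating spermatids. Without Leydig-like barcodes Angptl4 turned to -0.032 in whole testis. With barcodes of a single gate Plin2 turned to -0.12 in early round spermatids, and spermatogonia had 6.56 CPM of Acot1 and 1.4998 CPM of Acot2. With no UMI limit, which adds 3 barcodes of LFD replicate 2, Fabp3 in Leydig-like barcodes was at 963 CPM. Unthinned shares were 79.9% for Plin2 in later round spermatids and 21.7% for Fabp3 in late spermatocytes. Apart from the settings' own construction, the cause of these moves was not tested.

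Of the other values, 271 diet differences of members kept their direction and their side of the threshold, as did 141 cell-type differences. Another 9 cell-type differences kept their direction but no longer passed, including Angptl4 in early round spermatids (1.03 with no filter, 0.55 with a stricter gate). The cell-type counts were not split by member. They take in scarce members such as Angptl4, which passed the filter on low counts through types where they are high. For such members these tests had to find a difference, so nothing is read from their part of the 141 and the 9. Depth limits the 7 scarce members most, with 30 to 208 UMIs each.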

Other observations

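Genes that mark fat cells elsewhere were counted in germ cells of these testes. Adipoq, the hormone adiponectin, had 9194 UMIs and Retn, the hormone resistin, 3486, while Lep had 17, Adrb3 9, Car3 8 and Cfd 1. Adipoq was at 55.2 CPM in later round spermatids, 27.9 CPM in elongating and 18.8 CPM in early round spermatids, and at 1.17 to 3.74 CPM in spermatogonia and spermatocytes. Retn was highest earlier, at 14.4 CPM in late spermatocytes and 11.4 CPM in early round spermatids. Both were at 0 UMIs in Leydig-like barcodes. The summed adipocyte list was at 24.0 to 36.8 CPM in the HFD libraries and 24.9 to 33.4 CPM in the LFD libraries, and Fabp4, which fat cells also express, was not with them in level, at 0.242 CPM in later round spermatids.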
